A study of Mus musculus with 20 samples.

Results

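Proteasome subunit genes, here 41 mouse genes of the core particle, the base and lid of the regulatory particle, the base chaperones and the activators, were taken by symbol from a fixed list, and the probe set of each gene that was brightest on average over all 20 arrays was used. A probe set naming a single gene was present for 40 of them, of 18193 genes so represented on the array. All 40 were above the array median on at least 5 arrays, the filter that left 11859 genes tested. The probe set of Psme2, a subunit of the interferon-inducible activator, also names Psme2b, so its values (0.09 higher in TKO than in control lenses at P0 and 0.07 higher at E17.5, with overlapping arrays) are not assigned to a gene. The median was exceeded on all 20 arrays by 38 of the 40 genes, on 18 arrays by Psmb8 and on 13 by Psmb9, so both of these immunoproteasome subunits were measured near the middle of each array's values.

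The proteasome is the main protease complex of the cytosol and nucleus and degrades proteins tagged with ubiquitin. Its core particle stacks rings of alpha subunits, which gate the entrance, on rings of beta subunits, some of which carry the active sites. Regulatory particles at its ends bind ubiquitin chains and remove them, unfold the substrate with a ring of ATPases and feed it into the core. In cells exposed to interferon, Psmb8, Psmb9 and Psmb10 take the places of the catalytic subunits Psmb5, Psmb6 and Psmb7 and make the immunoproteasome, which is known for supplying peptides to class I molecules.

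Lens RNA of 20 mice was hybridised to Affymetrix arrays, 1 array per mouse, in 4 groups of 5. TKO lenses, at birth (P0) or at the embryonic stage E17.5, carried Cry-Cre, a Cre recombinase transgene named for a crystallin promoter, with E2F1-/-, E2F2-/- and E2F3f/f alleles. Control lenses at the same stages were E2F2-/-, so the absence of E2F2 was common to all groups and Cre was present in TKO lenses only. Both lenses of a mouse were pooled, and the labels call the cells epithelial although whole lenses were dissected. Whole lenses also hold fibre cells, and in such bulk RNA fewer cells of a type and less RNA per cell cannot be told apart. The deposited values are log2 expression values, a change is the difference between the means of the compared groups on that scale, and genes were called at an adjusted p below 0.05 (limma, Benjamini-Hochberg adjustment over all 11859 genes tested). "Rose" and "fell" are used of called genes only. A change is given with its standard error from limma and a mean with the SD over 5 arrays.

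The arrays differed in more than genotype. At P0 the mean log2 value of 15 retina markers was 6.43 to 7.51 on TKO and 4.71 to 6.27 on control arrays, and 12 of the 14 retina markers tested rose. Pigment cell markers averaged 7.33 to 7.98 on TKO and 6.42 to 6.88 on control arrays (6 of 8 tested rose), and macrophage markers 5.74 to 6.48 on TKO and 5.01 to 6.06 on control arrays (4 of 10 rose). Of all genes tested, 20.2% rose at P0. Lens markers were bright in every group, at 13.7 to 13.8 on TKO and 13.8 to 13.9 on control arrays, and 2 of 15 fell. Endothelium and pericyte markers averaged 6.85 to 7.56 on TKO and 7.01 to 8.06 on control arrays, with 1 of 11 fallen. Neither of these shares was above the 19.4% of all genes tested that fell at P0. The 5′ minus 3′ difference of the Gapdh control probe sets, a measure of RNA quality, did not overlap between genotypes: it was 0.147 to 0.195 on TKO and −0.0463 to 0.0605 on control arrays at P0, and 0.100 to 0.200 on TKO and −0.0598 to −0.0192 on control arrays at E17.5. Replicate 28 of the TKO lenses at E17.5 stood apart, with lens markers at 13.4, macrophage markers at 7.18 and endothelial markers at 8.86. The E2f1 probe set was 7.62 to 7.91 on TKO and 7.15 to 7.52 on control arrays at P0 (change 0.44 ± 0.09, adjusted p = 0.00263, limma) and 7.55 to 7.95 on TKO and 7.15 to 7.24 on control arrays at E17.5 (change 0.60 ± 0.08, adjusted p = 0.00788), higher at both stages in the lenses labelled TKO. The floxed E2f3 changed by −0.06 ± 0.08 at P0 (adjusted p = 0.595, limma) and by −0.07 ± 0.10 at E17.5 (adjusted p = 0.681) and did not pass. Where these probe sets lie relative to the deleted parts is not given, so they do not check the labels, and "TKO lenses" here means lenses so labelled.

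Promoter windows from RefSeq (250 bases before to 50 after a gene's start, build GRCm38.p6) were matched by symbol to 35 of the 41 genes. Windows of 4 genes are printed 5′ to 3′ on the gene's strand, and no expression result rests on them. Shown are those of Psma2 and Psmd10, which had the largest rises, and of Psmb6 and Psmb9, a constitutive subunit and its interferon-inducible replacement. They lie at chr13:14612992-14613291 (+ strand, Psma2), chrX:140956662-140956961 (− strand, Psmd10), chr11:70525107-70525406 (+ strand, Psmb6) and chr17:34187281-34187580 (− strand, Psmb9). Capitals mark matches, on either strand, to the 4 motifs searched, none of which overlap one another in these windows: the antioxidant response element TGACNNNGC, the CCAAT box, the interferon response element (GAAA, any 2 bases, GAAA) and the E2F element TTTNGCGC.
Psma2: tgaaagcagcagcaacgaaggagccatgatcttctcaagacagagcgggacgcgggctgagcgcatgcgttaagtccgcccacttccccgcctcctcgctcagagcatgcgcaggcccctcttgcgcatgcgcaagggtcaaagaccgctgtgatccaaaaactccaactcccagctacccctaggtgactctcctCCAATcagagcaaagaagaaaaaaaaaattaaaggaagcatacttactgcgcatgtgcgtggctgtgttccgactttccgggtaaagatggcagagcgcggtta
Psmd10: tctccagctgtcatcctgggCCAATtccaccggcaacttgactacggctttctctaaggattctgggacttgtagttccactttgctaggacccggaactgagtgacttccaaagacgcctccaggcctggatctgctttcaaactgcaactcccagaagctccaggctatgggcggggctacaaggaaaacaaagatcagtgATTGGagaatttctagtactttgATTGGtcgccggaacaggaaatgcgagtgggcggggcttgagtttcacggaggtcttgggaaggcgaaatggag
Psmb6: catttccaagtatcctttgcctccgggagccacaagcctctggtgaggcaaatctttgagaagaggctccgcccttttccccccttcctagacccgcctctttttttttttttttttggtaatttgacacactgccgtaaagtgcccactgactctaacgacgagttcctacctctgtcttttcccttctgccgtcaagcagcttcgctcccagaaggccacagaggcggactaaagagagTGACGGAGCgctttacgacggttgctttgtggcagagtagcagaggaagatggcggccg
Psmb9: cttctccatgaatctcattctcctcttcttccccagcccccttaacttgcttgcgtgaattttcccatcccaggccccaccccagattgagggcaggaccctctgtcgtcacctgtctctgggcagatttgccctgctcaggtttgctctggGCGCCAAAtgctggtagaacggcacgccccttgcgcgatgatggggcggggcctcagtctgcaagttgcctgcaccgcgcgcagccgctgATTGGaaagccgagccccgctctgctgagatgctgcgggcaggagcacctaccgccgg

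The Psma2 window held 1 CCAAT box and the Psmd10 window 3, the Psmb6 window held 1 antioxidant response element, and the Psmb9 window held 1 CCAAT box and 1 E2F element, both read from the opposite strand. Over the 38 windows of the 35 genes, CCAAT was present in 34.2%, against 37.4% of all 32851 RefSeq windows of that length. TGACNNNGC, a motif known for the factors encoded by Nfe2l1 and Nfe2l2, was present in 15.8% of the proteasome windows (Psmb5, Psmb6, Psmc6, Psmd9, Psmd12 and Psme4) and in 12.4% of all windows. The interferon response element was present in 10.5% of the proteasome windows (Psmb3, Psmd4, Psmd9 and Psme1) and in 3.44% of all windows, and none of these 4 is an immunoproteasome subunit. TTTNGCGC was present in 2.63% of the proteasome windows, the single gene being Psmb9, and in 1.38% of all windows. These are matches of letters and were not set against any measure of binding.

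In newborn lenses most proteasome subunit genes were higher in the TKO. Of the 40 genes, 21 rose (52.5%) and 0 fell, where 20.2% of all genes tested rose and 19.4% fell (39.6% in either direction). At an unadjusted p below 0.05 in limma, 26 were higher and 0 lower. The share of all genes tested at that unadjusted threshold was not counted, here or for the later counts of this kind. The changes were small: their median was 0.18 over the 40 genes and −0.0063 over all genes tested, and they ranged from −0.13 to 0.56. Of the 40 changes 36 were above 0, against 48.8% of those of all genes tested. For 18 of the 40 genes every TKO array lay above every control array (13.2% of all genes tested), and for 0 every TKO array lay below (12.7% of all genes tested).

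**Figure D1:**
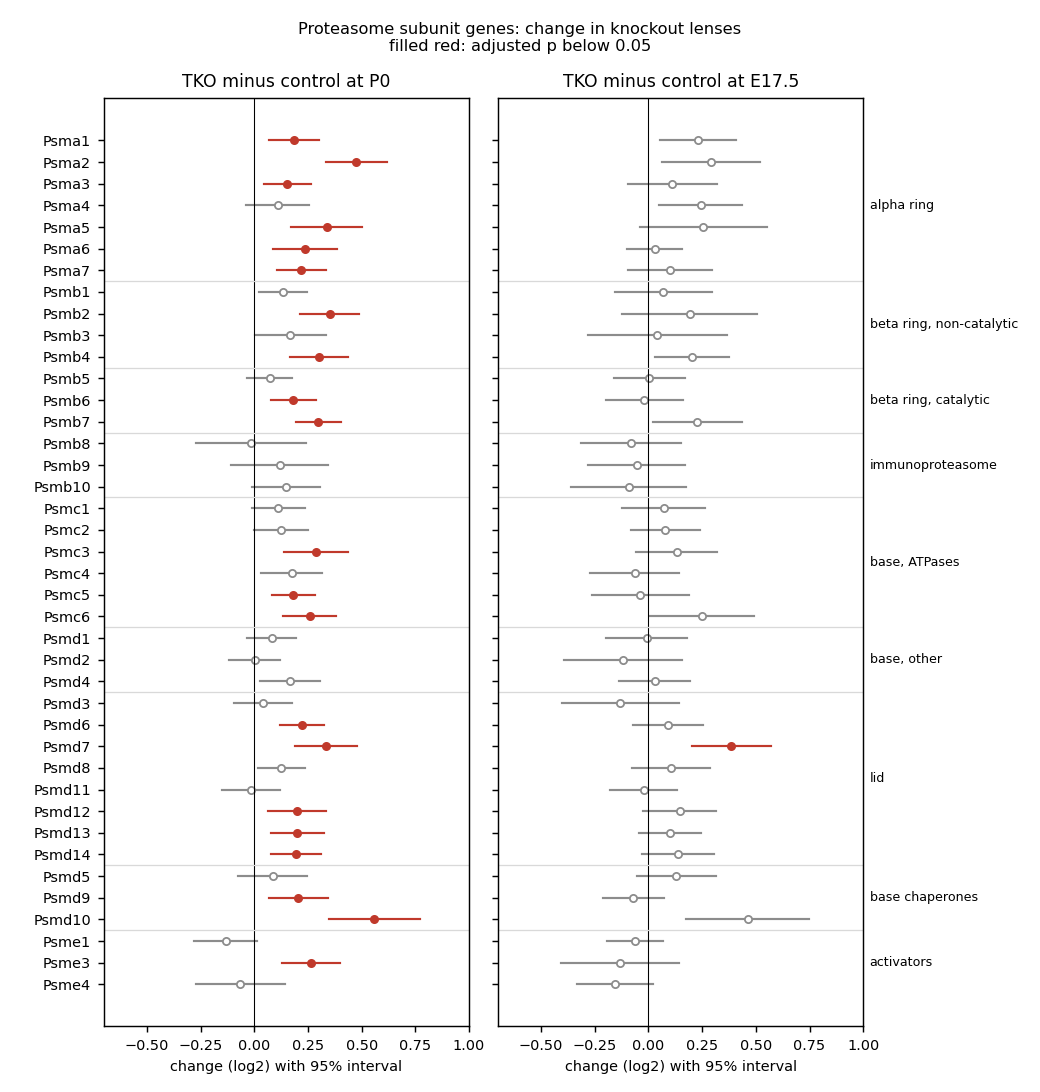
Change of each of the 40 proteasome subunit genes (log2, point with 95% confidence interval from limma), TKO minus control, at P0 in the left panel and at E17.5 in the right panel, ordered by their place in the complex. Filled red points passed the test: 21 at P0, all to the right of 0, and Psmd7 at E17.5.

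Of the 7 alpha ring genes, 6 rose at P0. Psma2 rose by 0.48 ± 0.06 (adjusted p = 0.000437), Psma5 by 0.34 ± 0.08, Psma6 by 0.24 ± 0.07, Psma7 by 0.22 ± 0.05, Psma1 by 0.18 ± 0.05 and Psma3 by 0.15 ± 0.05. Psma4 averaged 10.54 ± 0.13 on TKO and 10.43 ± 0.05 on control arrays (n = 5 each) and did not pass the test in limma (change 0.11, adjusted p = 0.215). The log2 values of Psma2 were 11.57, 11.79, 11.59, 11.46 and 11.50 on the TKO arrays at P0, against 11.09, 11.11, 11.14, 11.09 and 11.10 on the control arrays. The groups did not overlap, and the control arrays were the tighter group, with an SD of 0.13 on TKO and 0.02 on control arrays.

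In the beta ring some genes passed the test and others did not. Among the non-catalytic beta subunits, which build the ring without an active site, Psmb2 rose by 0.35 ± 0.06 (adjusted p = 0.00164) and Psmb4 by 0.30 ± 0.06. Psmb1 was higher by 0.13 ± 0.05 (adjusted p = 0.0583) and Psmb3 by 0.17 ± 0.07 (adjusted p = 0.0963), and neither passed in limma. Psmb2 had log2 values of 10.54, 10.59, 10.55, 10.33 and 10.40 on the TKO arrays at P0 and of 10.05, 10.17, 10.17, 10.14 and 10.13 on the control arrays. Every TKO array was above every control array.

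In the base and the lid of the regulatory particle some genes passed the test and others did not. No test compared the parts of the complex. Of the 6 ATPases of the base, which unfold substrates, Psmc3 rose by 0.29 ± 0.07, Psmc6 by 0.26 ± 0.06 and Psmc5 by 0.18 ± 0.05, and Psmc1, Psmc2 and Psmc4 were higher by 0.11, 0.12 and 0.17 without passing the test. None of the 3 other base subunits passed: the large scaffold subunits Psmd1 and Psmd2 changed by 0.08 and 0.0015 in limma (adjusted p = 0.233 and 0.986), and the ubiquitin receptor Psmd4 by 0.17 (adjusted p = 0.0578). Of the 8 lid genes 5 rose. Psmd7 rose by 0.33 ± 0.07 and Psmd14, the deubiquitinase with which its product forms a pair, by 0.19 ± 0.05. The scaffold subunits Psmd6, Psmd12 and Psmd13 rose by 0.22 ± 0.05, 0.20 ± 0.06 and 0.20 ± 0.06. The lid subunits Psmd3, Psmd8 and Psmd11 changed by 0.04, 0.13 and −0.02 and did not pass.

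The largest rise of all 40 genes at P0 was that of a chaperone, not of a subunit of the finished complex. Psmd10, or gankyrin, helps to assemble the ATPase ring and is also known as a binding partner of the retinoblastoma protein and of MDM2. Its log2 values were 9.08, 9.22, 9.20, 8.72 and 8.84 on the TKO arrays at P0 and 8.37, 8.48, 8.43, 8.45 and 8.52 on the control arrays. The groups did not overlap, and the TKO arrays were the more spread, with an SD of 0.22 on TKO and 0.06 on control arrays. The change was 0.56 ± 0.10 (adjusted p = 0.00143, limma). Psmd9, another chaperone of the base, rose by 0.21 ± 0.06 (adjusted p = 0.0239) with overlapping arrays, and the chaperone Psmd5 was higher by 0.08 ± 0.07 (adjusted p = 0.394).

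Among the activators, which cap the core in place of the regulatory particle, Psme3 rose by 0.26 ± 0.06 (adjusted p = 0.00688, limma). The interferon-inducible Psme1 was the lowest of the 40 changes, at 9.59 ± 0.13 on TKO and 9.72 ± 0.03 on control arrays (change −0.13, adjusted p = 0.135). Psme4, known for its role in male germ cells, changed by −0.06 ± 0.09 (adjusted p = 0.623). Neither of these passed the test.

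**Figure D2:**
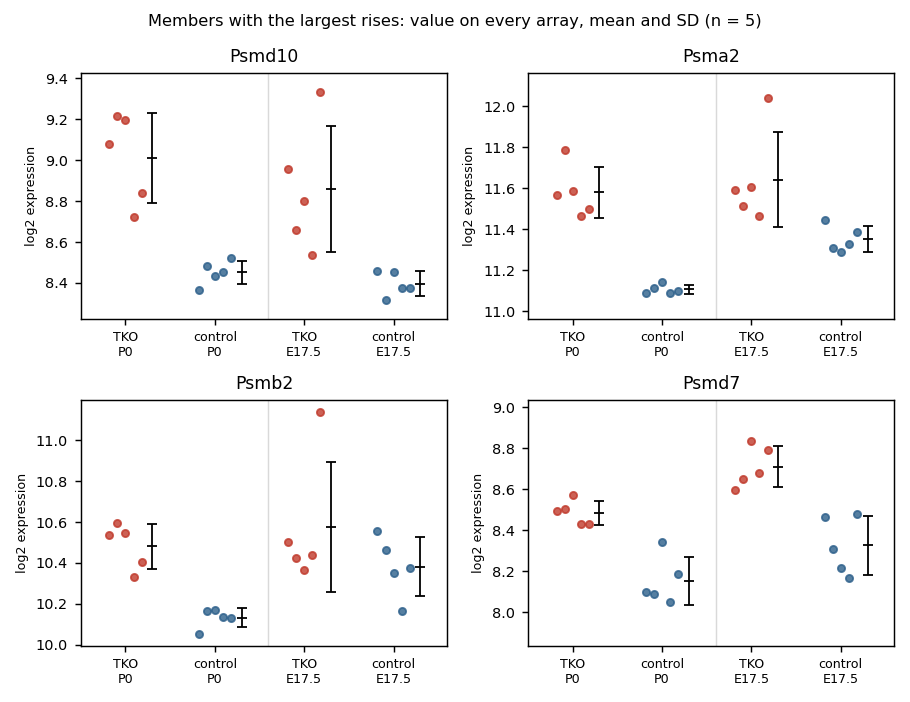
Log2 expression of Psmd10, Psma2, Psmb2 and Psmd7 on every array (points), with the mean and SD of 5 arrays beside each group. At P0 all TKO points lie above all control points in each panel; at E17.5 this holds for Psmd10, Psma2 and Psmd7, while Psmb2 overlaps and replicate 28 of the TKO lenses is its highest point at 11.14.

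Other probe sets of the same genes did not all move the same way. Of 15 further probe sets above the array median on at least 5 arrays, for 12 of the 21 risen genes, 8 were higher in TKO lenses at P0. Over all subunit genes, risen or not, 31 further probe sets of 19 genes passed this filter. Of those 31, 15 were higher in TKO lenses at P0. The second probe sets of Psma5 and Psma7 were higher by 0.19 and 0.35 and those of Psma6 by 0.32 and 0.16. A second probe set of Psme3 was lower by 0.35, against a rise of 0.26 in the brighter one, and those of Psmd6, Psmd7, Psma1, Psmd9 and Psma3 changed by −0.01, −0.0026, −0.01, −0.04 and −0.07, while Psmd13 had 1 at 0.26 and 1 at −0.03. With the mean of all probe sets of a gene in place of the brightest, 39 genes were tested and 15 rose, and Psma1, Psmd9 and Psme3 changed by −0.05, −0.09 and −0.02. Psma2, Psmb2 and Psmd10 had no second probe set above the median, so their rises rest on a single probe set each. The same held for the risen genes Psmb6, Psmb7, Psmc3, Psmc5, Psmd12 and Psmd14.

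At P0 the median deviation of the subunit genes from the control mean was higher on every TKO array than on any control array. The same held for the mean of the retina markers, though not for every single gene of either set. Within the TKO lenses at P0, replicate 21 had the highest retina marker mean, 7.51, and the lowest median deviation of the subunit genes, 0.13. Replicate 18 had the next highest retina marker mean, 7.07, and the highest deviation, 0.22. Replicate 22 had the lowest retina marker mean, 6.43, and a deviation of 0.18. In TKO lenses at E17.5, replicate 25 had the highest retina marker mean, 7.63, and the lowest deviation, −0.06. Replicate 24 there had the lowest retina marker mean, 5.68, and a deviation of 0.07, and replicate 28 had the highest deviation, 0.27, with a retina marker mean of 6.57. Whether these measures vary together within a group was not tested. Relative to the control mean, the median of the 37 genes other than Psmb8, Psmb9 and Psmb10 was 0.13 to 0.22 on the TKO arrays, with 31 to 35 genes above the control mean, and −0.03 to 0.08 on the control arrays, with 2 to 29 above. Control replicate 6 was the highest control array, with 29 genes above the mean. With the retina marker mean as a covariate, the median change at P0 was 0.17 over the 40 genes and 35 were above 0, while the standard errors were larger and 3 genes were called: Psmd10 (0.69 ± 0.16, adjusted p = 0.0289, limma), Psma2 (0.46 ± 0.11, adjusted p = 0.0338) and Psmb2 (0.41 ± 0.10, adjusted p = 0.0403). With that covariate 1045 of all genes tested were called, against 4700 without it. The retina marker means of the genotypes did not overlap at P0 (6.43 to 7.51 on TKO and 4.71 to 6.27 on control arrays). Retina signal and genotype therefore cannot be told apart at P0, and the fit with the covariate does not separate them. The part of the pigment cell markers, the macrophage markers and the Gapdh 5′ minus 3′ difference in these rises was not tested.

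**Figure D3:**
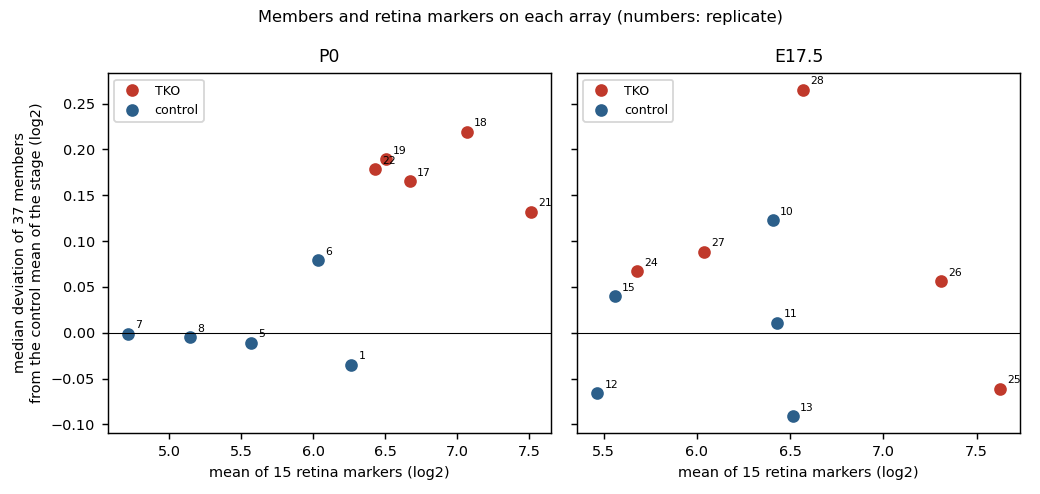
Median deviation of 37 proteasome subunit genes from the control mean of the stage (log2, vertical axis) against the mean log2 value of 15 retina markers (horizontal axis) on each array, at P0 and E17.5, TKO in red and control in blue, with replicate numbers. At P0 the TKO arrays lie at 0.13 to 0.22, above all control arrays, and also to the right of them; at E17.5 the genotypes overlap on both axes.

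At E17.5 the same comparison of genotypes gave fewer calls, with a wider spread between the TKO arrays. Of the 40 genes, 1 rose (2.5%) and 0 fell, where 1.59% of all genes tested rose and 1.31% fell (2.89% in either direction). The share of risen genes was thus near that of all genes. At an unadjusted p below 0.05 in limma, 8 were higher and 0 lower. The median change was 0.07 (−0.0291 over all genes tested), and 26 of the 40 changes were above 0, against 44.7% of all genes tested. Every TKO array lay above every control array for 4 genes, Psma2, Psma4, Psmd7 and Psmd10 (4.0% of all genes tested), and for 0 genes every TKO array lay below (5.95% of all genes tested).

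The gene that passed was Psmd7, the lid subunit that holds the deubiquitinase Psmd14. Its log2 values at E17.5 were 8.59, 8.65, 8.84, 8.68 and 8.79 on the TKO arrays and 8.46, 8.31, 8.22, 8.16 and 8.48 on the control arrays, a change of 0.39 ± 0.08 (adjusted p = 0.0398, limma). The groups did not overlap, and replicate 28 was within the range of the other TKO arrays. At P0 its values were 8.49, 8.50, 8.57, 8.43 and 8.43 on the TKO arrays, against 8.10, 8.09, 8.34, 8.05 and 8.18 on the control arrays, again without overlap. Leaving out any 1 control array at E17.5, or TKO replicate 25 or 26, ended the call at E17.5, as did the retina covariate (change 0.37 ± 0.09, adjusted p = 0.0944) and the mean of its probe sets.

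Psmd10 had log2 values of 8.96, 8.66, 8.80, 8.54 and 9.33 on the TKO arrays at E17.5, against 8.46, 8.32, 8.45, 8.37 and 8.38 on the control arrays. All TKO arrays were above all control arrays, with replicate 28 the highest, and the change of 0.46 ± 0.13 did not pass in limma (adjusted p = 0.0744). Without replicate 28, or without replicate 27, both Psmd10 and Psmd7 were called. Psma2 was 11.59, 11.51, 11.60, 11.47 and 12.04 on the TKO arrays and 11.45, 11.31, 11.29, 11.33 and 11.39 on the control arrays (change 0.29 ± 0.10, adjusted p = 0.123). Psmb2 was 10.50, 10.43, 10.36, 10.44 and 11.14 on the TKO arrays and 10.55, 10.46, 10.35, 10.17 and 10.38 on the control arrays (change 0.19 ± 0.14, adjusted p = 0.407). For both genes replicate 28 was the highest array of all, and for Psmb2 the other arrays of the genotypes overlapped.

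The spread between arrays was wider in the TKO lenses at E17.5 than in any other group, with a median SD of 0.16 over the 40 genes, against 0.09 in control lenses at E17.5, 0.09 in TKO lenses at P0 and 0.06 in control lenses at P0. When all 20 arrays shared 1 estimate of the spread, 6 genes rose at E17.5, namely Psma1, Psma2, Psma4, Psmb7, Psmd7 and Psmd10. A test of the difference between the genotype effects at P0 and at E17.5 called 0 of the 40 genes in either direction in limma (0.0337% of all genes tested were called higher and 0.143% lower), with 5 above and 0 below at an unadjusted p below 0.05. The differences ranged from −0.13 for Psma4 to 0.40 for Psme3, with a median of 0.09 against 0.03 over all genes tested. They were above 0 for 35 of the 40 genes and for 55.5% of all genes tested. The effect at P0 is therefore not shown to differ from that at E17.5 for any single gene.

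Constitutive and inducible catalytic subunits were compared next. Of the 3 constitutive subunits, Psmb7, which carries the trypsin-like activity, and Psmb6, which carries the caspase-like activity, rose in TKO lenses at P0, and Psmb5, which carries the chymotrypsin-like activity, did not pass. Of the 3 immunoproteasome subunits that replace them none passed at either stage. Their values follow on every array.

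Psmb7 had log2 values of 11.72, 11.76, 11.73, 11.73 and 11.72 on the TKO arrays at P0 and of 11.40, 11.45, 11.50, 11.36 and 11.44 on the control arrays. The TKO arrays lay above all control arrays and close together (SD 0.02), and the change was 0.30 ± 0.05 (adjusted p = 0.000892, limma). Psmb6 had 11.57, 11.61, 11.56, 11.57 and 11.54 on the TKO arrays, against 11.37, 11.33, 11.47, 11.39 and 11.39 on the control arrays, a change of 0.18 ± 0.05 (adjusted p = 0.0114) without overlap. Psmb5 had 12.35, 12.25, 12.30, 12.37 and 12.29 on the TKO arrays and 12.20, 12.22, 12.23, 12.26 and 12.28 on the control arrays, a change of 0.07 ± 0.05 (adjusted p = 0.254). The genotypes overlapped for Psmb5.

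Psmb10, the partner of Psmb7, had log2 values of 6.78, 6.97, 6.91, 6.87 and 6.65 on the TKO arrays at P0 and of 6.72, 6.75, 6.53, 6.77 and 6.68 on the control arrays (change 0.15 ± 0.07, adjusted p = 0.131, limma). Psmb9 had 5.30, 5.74, 5.32, 5.44 and 5.19 on the TKO arrays, against 5.20, 5.27, 5.28, 5.49 and 5.16 on the control arrays (change 0.12 ± 0.10, adjusted p = 0.39). Psmb8 had 5.77, 5.70, 5.49, 5.47 and 5.05 on the TKO arrays and 5.50, 5.47, 5.44, 5.58 and 5.58 on the control arrays (change −0.02 ± 0.12, adjusted p = 0.925). The genotypes overlapped for all 3 genes, and the 95% confidence intervals, −0.01 to 0.31 for Psmb10, −0.11 to 0.34 for Psmb9 and −0.27 to 0.24 for Psmb8, include both no change and changes as large as those of Psmb6.

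At E17.5 the log2 values of Psmb10 were 6.59, 6.46, 6.50, 6.77 and 7.15 on the TKO arrays and 6.80, 6.87, 6.84, 6.74 and 6.67 on the control arrays. Those of Psmb7 were 11.69, 11.62, 11.67, 11.80 and 12.10 on the TKO arrays and 11.63, 11.62, 11.56, 11.42 and 11.53 on the control arrays. Each gene overlapped between the genotypes, with changes of −0.09 ± 0.12 for Psmb10 and 0.23 ± 0.09 for Psmb7, and replicate 28 was the highest array for both. None of the remaining 4 passed at E17.5 in limma, with changes of 0.0042 ± 0.08 for Psmb5, −0.02 ± 0.08 for Psmb6, −0.08 ± 0.11 for Psmb8 and −0.06 ± 0.10 for Psmb9.

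**Figure D4:**
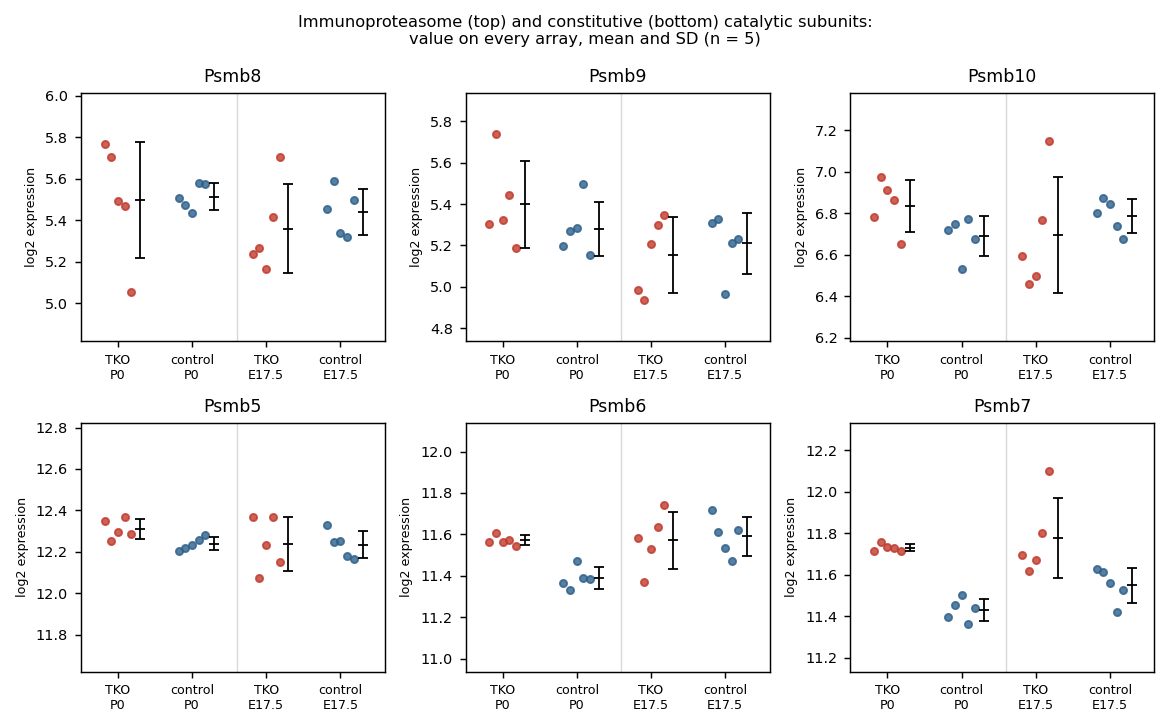
Log2 expression of the immunoproteasome subunits Psmb8, Psmb9 and Psmb10 (top) and of the constitutive subunits Psmb5, Psmb6 and Psmb7 whose places they take (bottom), on every array (points), with the mean and SD of 5 arrays beside each group. At P0 the TKO points of Psmb6 and Psmb7 lie above all control points; in the other 4 panels the genotypes overlap at both stages. Each panel has its own axis range.

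The difference between each inducible subunit and its partner was then formed on every array, and its mean was compared between genotypes with an exact two-sided permutation test, 6 tests in all, for which the smallest possible p is 0.00794. At E17.5 Psmb10 minus Psmb7 was −5.17 to −4.95 on the TKO arrays and −4.85 to −4.68 on the control arrays, without overlap. Its mean was −5.08 ± 0.09 in TKO and −4.76 ± 0.07 in control lenses, lower by 0.32 in the TKO (exact permutation p = 0.00794, adjusted over the 6 tests 0.0476). Since the level of each probe set has its own scale, only the change of this difference was compared. Whether probe sets of such unlike brightness change on the same scale was not tested. Replicate 28, where both genes were highest, gave the highest of the TKO values, −4.95, and without it the difference between the genotypes was −0.35. With any 1 array left out the exact permutation p was the smallest that the remaining arrays allow, which the adjustment over the 6 tests brings to 0.0952.

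At P0 the same difference was −4.89 ± 0.11 in TKO and −4.74 ± 0.14 in control lenses (lower by 0.15 in the TKO, exact permutation p = 0.103, adjusted 0.31), and the arrays overlapped. Without control replicate 6 it was lower by 0.21, the largest difference with 1 array left out (exact permutation, adjusted p = 0.0476). That adjusted p depends on the E17.5 test on all arrays, which ranks before it in the adjustment over the 6 tests. It is therefore not read as a pass. Psmb9 minus Psmb6 changed by −0.06 at P0 and −0.04 at E17.5, and Psmb8 minus Psmb5 by −0.09 at both stages (exact permutation p = 0.54 to 0.603). The SD of Psmb8 minus Psmb5 at P0 was 0.28 in TKO and 0.05 in control lenses. All 6 differences were lower in the TKO, and 1 passed.

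The stages were compared within each genotype. In control lenses 18 of the 40 genes fell at P0 relative to E17.5 (45%) and 0 rose, where 24.9% of all genes tested fell and 12.5% rose. At an unadjusted p below 0.05 in limma, 27 were lower and 0 higher. The median change was −0.16, against −0.0373 over all genes tested, and for 11 genes every P0 array lay below every E17.5 array (17.2% of all genes tested) and for 0 above (7.78% of all genes tested). This comparison and that of the genotypes at P0 share the 5 control arrays at P0, so they are not independent and their values are only set side by side.

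All 7 alpha ring genes fell in control lenses between the stages, Psma7 by the most at −0.38 ± 0.06 (adjusted p = 0.000529, limma), then Psma1 (−0.36 ± 0.06), Psma3 (−0.31 ± 0.05), Psma4 (−0.26 ± 0.04), Psma2 (−0.25 ± 0.04), Psma5 (−0.19 ± 0.06) and Psma6 (−0.19 ± 0.05). In the beta ring Psmb3 (−0.28 ± 0.08), Psmb2 (−0.25 ± 0.07) and the catalytic Psmb6 (−0.20 ± 0.05) fell. Psmb4 and Psmb5 changed by 0.03 and 0.0051 and did not pass, nor did Psmb1 and Psmb7. None of the 6 ATPases passed, at −0.15 to −0.09, while the scaffold subunits Psmd2 (−0.28 ± 0.07) and Psmd1 (−0.18 ± 0.05) of the base fell. In the lid Psmd14 (−0.30 ± 0.06), Psmd6 (−0.24 ± 0.04), Psmd11 (−0.19 ± 0.06) and Psmd3 (−0.18 ± 0.05) fell. The chaperone Psmd5 (−0.20 ± 0.05) and the activator Psme3 (−0.37 ± 0.07) completed the 18.

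The immunoproteasome subunits did not pass between stages in control lenses, with changes of 0.07 for Psmb8, 0.07 for Psmb9 and −0.10 for Psmb10. Psmd10, with the largest genotype change, changed by 0.06 ± 0.05 (adjusted p = 0.348, limma). Among the markers, 4 of 14 retina markers tested fell between the stages in control lenses, a share near the 24.9% of all genes tested that fell. Of the lens markers 7 of 15 rose, where 12.5% of all genes tested rose. Macrophage markers fell for 4 of 10 tested (median change −0.79) and erythroid markers for 2 of 2 (median −1.57). Of the pigment cell markers 1 of 8 fell, and of the endothelium and pericyte markers 0 of 11. The part of these cell types in the fall of the subunit genes was not tested. With the retina markers as a covariate 14 of the 40 genes fell.

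In TKO lenses 3 of the 40 genes fell between E17.5 and P0 (7.5%) and 0 rose, where 8.77% of all genes tested fell and 5.80% rose, so the share of fallen genes was near that of all genes. The 3 were Psma1 (−0.40 ± 0.08, adjusted p = 0.0144, limma), Psma4 (−0.39 ± 0.10, adjusted p = 0.0298) and Psmd14 (−0.24 ± 0.07, adjusted p = 0.0455). At an unadjusted p below 0.05, 8 were lower and 2 higher, the median change was −0.07, and every P0 array lay below every E17.5 array for 6 genes (7.02% of all genes tested) and above for 1, Psmd9 (4.73% of all genes tested). Psmb6 changed by −0.0008 in TKO lenses and by −0.20 in control lenses. Psma7, at −0.27 ± 0.09 in TKO lenses, did not pass. Leaving out TKO replicate 17, 18 or 19 at P0, or 25, 26 or 27 at E17.5, left 1 fallen gene. Whether the change between stages differs by genotype is the test of the difference of effects given above, which called none of these genes.

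**Figure D5:**
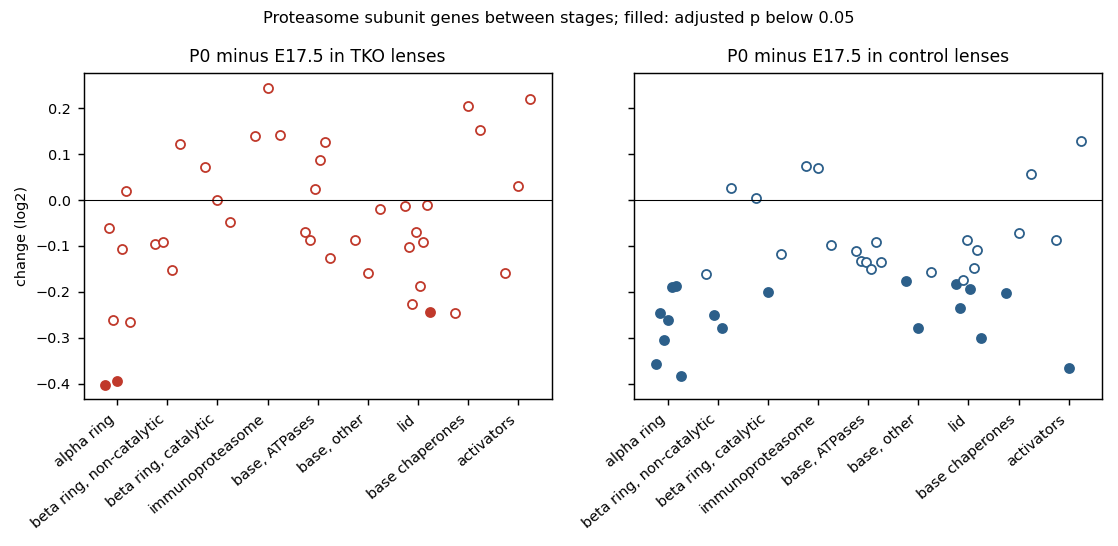
Change of each of the 40 proteasome subunit genes between stages (log2, P0 minus E17.5), in TKO lenses in the left panel and in control lenses in the right panel, grouped by place in the complex. Filled points passed the test: 3 in TKO lenses and 18 in control lenses, all below 0, among them all 7 alpha ring genes in control lenses.

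Genes that assemble, regulate and supply the proteasome were counted at P0 beside the 20.2% of all genes tested that rose and the 19.4% that fell. Of 36 listed genes 26 were on the array and 24 were tested, of which 3 rose and 3 fell, so neither count was above the share of all genes. Those that rose were Pomp, the maturation factor of the core (0.28 ± 0.06, adjusted p = 0.00298, limma), Psmf1, which binds the core (0.31 ± 0.06, adjusted p = 0.00197), and Sem1, the smallest lid subunit (0.31 ± 0.07, adjusted p = 0.00676). Those that fell were Nfe2l1, a transcription factor known to raise proteasome genes when the proteasome is inhibited (−0.40 ± 0.09, adjusted p = 0.00551), and the ubiquitin shuttle genes Ubqln4 (−0.38 ± 0.08, adjusted p = 0.00301) and Ubqln1 (−0.30 ± 0.08, adjusted p = 0.0091). The list's median change was 0.04. At E17.5 none of the 24 passed in limma in either direction, with 4 higher and 2 lower at an unadjusted p below 0.05.

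Between stages in control lenses 12 of these 24 genes fell and 2 rose, where 24.9% of all genes tested fell and 12.5% rose. Nfe2l2, the stress-activated relative of Nfe2l1, fell by 0.96 on the log2 scale (SE 0.05, adjusted p = 3.54e-06, limma), the ubiquitin-activating enzyme Uba6 by 0.53, the core assembly chaperone Psmg3 by 0.42 and Ubqln2 by 0.40. Zfand5 and Zfand2a, zinc finger proteins that associate with the proteasome, rose by 0.40 and 0.28.

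Of the class I antigen presentation and interferon response genes, 26 listed and 19 tested, 4 rose in TKO lenses at P0 and 0 fell. They were B2m, the light chain of class I molecules (0.81 ± 0.18, adjusted p = 0.00455, limma), the interferon-stimulated gene Ifit3 (0.72 ± 0.19, adjusted p = 0.0129), Nlrc5, a transactivator of class I genes (0.52 ± 0.19, adjusted p = 0.0465), and the interferon receptor subunit gene Ifngr2 (0.25 ± 0.09, adjusted p = 0.0493). For each of the 4 the arrays of the genotypes overlapped. Their number is to be read against the 20.2% of all genes tested that rose, and 6 were higher and 0 lower at an unadjusted p below 0.05. The macrophage and pigment cell markers also had risen members at P0, as given above, and their part in these changes was not tested. At E17.5 none of the 19 passed in limma, with 2 higher and 0 lower at an unadjusted p below 0.05.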

How the data were processed

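Lens RNA of 20 mice was measured on Affymetrix arrays with 45101 probe sets, 64 of them controls. The authors deposited 1 log2 expression value per probe set and array, from 1.72 to 15.0; for background correction and normalization, the sources used here give no method. The array medians lay between 5.05 and 5.25. Of the other probe sets 34945 named 1 gene, 932 several and 9160 none. The deposited values were used without further scaling. The brightest probe set of a gene on average stood for it, and genes above the array median on at least 5 of 20 arrays were tested.

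Each comparison was fitted in limma 3.58.1 (R 4.3.3) on its 10 arrays alone, and the difference of the genotype effects on all 20, with Benjamini-Hochberg adjustment over all genes tested. Files and promoter windows were read with Python 3.11.15, and pair differences were compared with exact permutation tests in SciPy 1.17.1. The fits were tested on simulated data. Alternatives were a fit of all 20 arrays, quantile normalization, median centring, other filters, other choices of probe set, a retina covariate and leaving out each array.

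All listed subunits are described by class, with values per array for the catalytic subunits and, per genotype comparison, the called subunits with the 3 largest rises and falls. From the pathway lists up to 4 called genes per direction are named by smallest adjusted p. The members and lists were chosen with earlier results of these data known. The number of arrays limits the precision, and p-values reflect the spread among separate mice, for which no litters are given.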

Additional observations from a re-analysis of the deposited data

Results flagged for a closer look

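In 14 of 172 groups of 5 arrays tested (8.14%), 1 array stood apart from the other 4 by Dixon's criterion, where chance marks about 1 in 20 groups. Replicate 28 of the TKO lenses at E17.5 accounted for 7. It was high for Psma2 at 12.04 (the others 11.47 to 11.6), Psma5 at 12.42 (11.67 to 11.86), Psmb1 at 11.71 (11.21 to 11.34), Psmb2 at 11.14 (10.36 to 10.5) and Psmd5 at 9.16 (8.75 to 8.8). It was low for Psmd2 at 11.08 (11.58 to 11.77) and Psmd3 at 8.7 (9.23 to 9.41).

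Replicate 6 of the control lenses at P0 accounted for 3, high for Psmc1 at 10.63 (10.45 to 10.49), Psmd2 at 11.51 (11.31 to 11.36) and Psmd12 at 10.77 (10.56 to 10.61). Psmd9 was high on control replicate 7 at P0, at 8.05 (7.83 to 7.88), and on control replicate 10 at E17.5, at 8.11 (7.91 to 7.96). Psma3 was low on TKO replicate 17 at P0, at 11.37 (11.46 to 11.48), and Psme4 was high on TKO replicate 26 at E17.5, at 11.1 (10.93 to 10.97). The cause was not tested.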

How the results depend on the processing

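At P0, 3 subunit genes rose with the retina covariate, against 21 without it, and 1045 of all genes were called, against 4700; leaving out 1 array gave 17 to 24. Without probe sets ending in _s or _x, 1 subunit gene, Psmd11, fell. With the mean of probe sets Psma1, Psmd9 and Psme3 changed by −0.0457, −0.0939 and −0.0219. At E17.5, 6 subunit genes rose in the fit of all 20 arrays and 0 with the mean of probe sets or the retina covariate (limma), and leaving out 1 array gave 0 to 2. All genes called at E17.5, 343 as reported, were 1541 with all 20 arrays, 580 after quantile normalization, 197 after centring, 97 with the retina covariate and 49 to 1129 with 1 array left out. Quantile normalization turned the split of 188 risen and 155 fallen into 207 and 373, and centring into 149 and 48.

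For the difference of effects, 21 genes were called, 0 with array weights, 1 with the retina covariate and 0 to 321 with 1 array left out. Between stages in control lenses 10 subunit genes fell in the fit of all 20 arrays (2046 genes called, against 4431), and leaving out 1 array gave 14 to 25; the split of 1480 risen and 2951 fallen became 1940 and 2415 after quantile normalization. In TKO lenses the subunit genes that fell numbered 9 with all 20 arrays, 1 after quantile normalization, 6 after centring and 1 to 4 with 1 array left out; those that rose numbered 1, 2 and 1 with all 20 arrays, quantile normalization and without _s or _x probe sets. Genes called there, 1728 as reported, were 3940 with all 20 arrays, 2644 with no filter, 884 with the stricter filter and 440 to 2716 with 1 array left out; the split of 688 risen and 1040 fallen became 898 and 685 after quantile normalization, 371 and 1308 after centring and 1499 and 1145 with no filter.

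Psmb10 minus Psmb7 at E17.5 differed by −0.3534 to −0.2982 with 1 array left out; at P0 it differed by −0.2087 (without control replicate 6) to −0.1091. Of the uncalled subunit genes, 11 of 39 at E17.5 and 5 of 19 at P0 changed sign under some alternative. The cause of these shifts was not tested. No paired analysis was possible because no replicate number occurs in more than 1 group.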
